A study of Mus musculus with 12 samples.

Results

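Integrins, laminins and cadherins are the molecules by which cells hold on to the matrix and to each other, and their transcripts were followed in mouse TM3 cells treated with methoxyacetic acid (MAA). The set holds 72 probes for 50 genes, out of 41174 non-control probes on the array, and comprises 15 integrin alpha subunits, 7 integrin beta subunits, 9 laminin chains and 19 cadherins. A member is a gene whose symbol is Itga, Itgb, Lama, Lamb, Lamc or Cdh followed by a number alone (with an optional letter for Itga), or is Itgal, Itgam, Itgav, Itgax or Itgae. The rule was meant for the gene names in the scanner files, but these hold accessions and matched the pattern for 0 probes, so the accessions were first translated to symbols through the RefSeq table. Cdh9, Cdh10, Cdh18, Cdh19, Itga1, Itga10, Itgb8, Lama3 and Lama5 fit the pattern but had no probe matched in this way and are not analysed here. The cadherins include members that are not classical cadherins, such as Cdh13, Cdh16, Cdh17, Cdh23 and Cdh26.

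An integrin is a dimer of an alpha and a beta subunit, and the pairing decides whether it binds laminin, collagen, fibronectin and vitronectin, or counter-receptors on other cells. Laminins are trimers of an alpha, a beta and a gamma chain and form the sheet-like core of basement membranes, such as those around the seminiferous tubules of the testis. Cadherins join like cells through calcium-dependent contacts and are tied to actin by catenins.

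TM3 is a Leydig cell line from the testis of immature mice. Exposure to MAA was at a concentration of 5 mM or 1 mM and lasted 3, 8 or 24 h. RNA from a pool of 3 treated cultures was hybridised on a 2-colour array against untreated TM3 cells of the same time. Each of the 6 conditions has 2 arrays with the dyes exchanged: the treated cells are green on replicate 1 and red on replicate 2. By the study's methods, the dye-exchanged array of a condition used another pool of treated cultures. The p-values therefore measure the spread between pools, between arrays and between dye orientations together, and the number of arrays limits their precision. The main model has no term for the dye, so any steady difference between its orientations counts as spread. The median signal of an array ranged from 52.7 to 126 in either channel, and 61.5% to 70.4% of probes were well above background. The 2 arrays of a condition resembled each other least at 1 mM and 3 h, where their log2 ratios correlated with r = -0.13 across all probes and 0.15 across probes above background, compared with 0.64 and 0.84 at 5 mM and 24 h.

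Among the markers of Leydig cells, Star, Cyp17a1 and Insl3 were well above background in the control channel of all 12 arrays and Nr5a1 on 8 of them, whereas Cyp11a1, Hsd3b1 and Lhcgr, the receptor for luteinising hormone, were on none. Of 6 Sertoli cell markers, Sox9 and Wt1 were above background in the control channel of all 12 arrays, as were 5 of 7 peritubular or fibroblast markers, 1 of 3 germ cell markers and 3 of 6 epithelial markers, and 0 of 6 endothelial markers. Several markers moved with MAA, in both directions within a list. At 5 mM and 24 h, Insl3 fell by 1.11 and Cyp11a1 was called higher among the Leydig markers, Col1a2 fell by 1.30 and Thy1 was called higher among the peritubular or fibroblast markers, and the epithelial marker Krt8 rose by 1.84. No size is given for Cyp11a1 and Thy1, which were below background in all 12 control channels. Cnn1 was called higher at 8 h (1.19) and gave 0.95 at 24 h, and of the Sertoli cell markers Sox9, which rose by 1.37, and Sox8 were called higher at 3 h. The cells are therefore named here by their line and not by a cell type. All values below are log2 ratios of MAA over control, so that 1 is a doubling, given on each array as replicate 1 and replicate 2 and then as the mean with its standard error (SE) from a linear model over all 12 arrays (limma, n = 2 arrays a condition). Calls use the limits the study set, which are an unadjusted p below 0.005 together with a difference past 2-fold for 5 mM and past 1.5-fold for 1 mM. The study put its p limit on values from the error model of the Rosetta software, which could not be run here, and limma stands in for it, so the calls are not those of the study. The adjusted p-values come from the Benjamini-Hochberg method across the whole array.

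At 5 mM MAA, 1 of the 72 member probes was called higher and 0 lower at 3 h, against 2.02% and 1.74% of all probes. At 8 h, 4 were called higher and 4 lower, against 3.06% and 2.49% of all probes, and at 24 h 7 were higher and 1 lower, against 3.85% and 1.77%. At 1 mM, 0 were called in either direction at 3 h, where 1.32% and 0.627% of all probes were called higher and lower and 8 member probes had an unadjusted p under 0.05 in limma. At 8 h, 4 were higher and 2 lower, against 1.72% and 0.656%, and at 24 h 7 were higher and 0 lower, against 3.26% and 1.41%. At 3 h the member counts were too small to set apart from the background (1.39% of the members called higher at 5 mM, and 2.86% against 2.81% among probes above background). With the scanner's own processing, those higher at 24 h, equal to 9.72% of the members at each concentration, stood above the background. With normexp background correction and loess in its place, 0 were called at 5 mM and 3 h and 3 at 8 h, and 3 at 1 mM at both 8 and 24 h. The share of all probes called in that way is not given here, so these counts are not set against the background. Leaving out 1 array of a condition also moved these counts. Their ranges are given in the last section, without shares of all probes, so they are not set against the background either. The 7 probes higher at 24 h include more than 1 probe of Cdh11 at 1 mM. At 5 mM they include Cdh5, where neither channel was above background. The members were chosen with earlier results of these data known. An excess of members over the array, here or below, is therefore a description and not independent evidence of a response. The median log2 ratio of the 72 probes was -0.12, -0.03 and 0.17 at 5 mM and 0.02, 0.04 and 0.09 at 1 mM, against -0.10, -0.04, 0.03, 0.02, 0.02 and -0.07 for all probes.

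**Figure D1:**
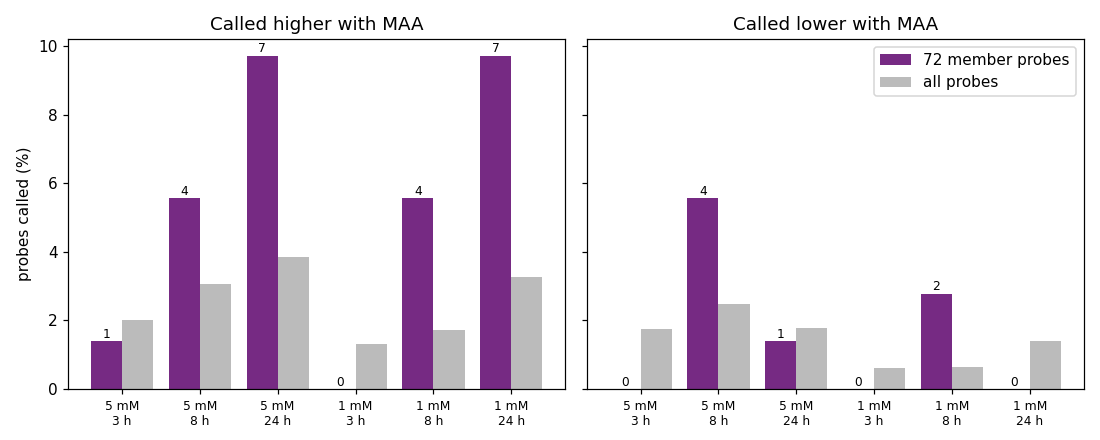
Percentage of probes called higher (left) or lower (right) with MAA in each of the 6 conditions, for the 72 member probes (purple, with the number called above the bar) and for all probes (grey). At 24 h, 7 member probes were called higher at each concentration, against 3.85% of all probes at 5 mM and 3.26% at 1 mM.

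Much of the set was not measurable in these cells. For 31 of the 72 probes, no condition had a channel clearly brighter than background on its 2 arrays, and for 17 genes this was true of every probe. These were Itga2, Itga8, Itga9, Itgam, Itgax, Itgb6, Lama1, Lama4, Cdh4, Cdh6, Cdh7, Cdh8, Cdh12, Cdh13, Cdh16, Cdh17 and Cdh24. At the other end, 23 genes were above background in both channels on all 12 arrays by their main probe, the probe of the gene with the highest mean signal. Altogether 14 genes were called in at least 1 condition, all of them by the main probe, and 12 of these were called at 5 mM. Lamc3, Cdh1, Cdh3, Cdh22 and Cdh23 were above background in part of the channels and were not called. The ratio of Cdh22 was below 0 on replicate 1 and above 0 on replicate 2 in every condition (SE 1.94). It thus followed the replicate number, with which the dye orientation goes, and its means do not inform on MAA.

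**Figure D2:**
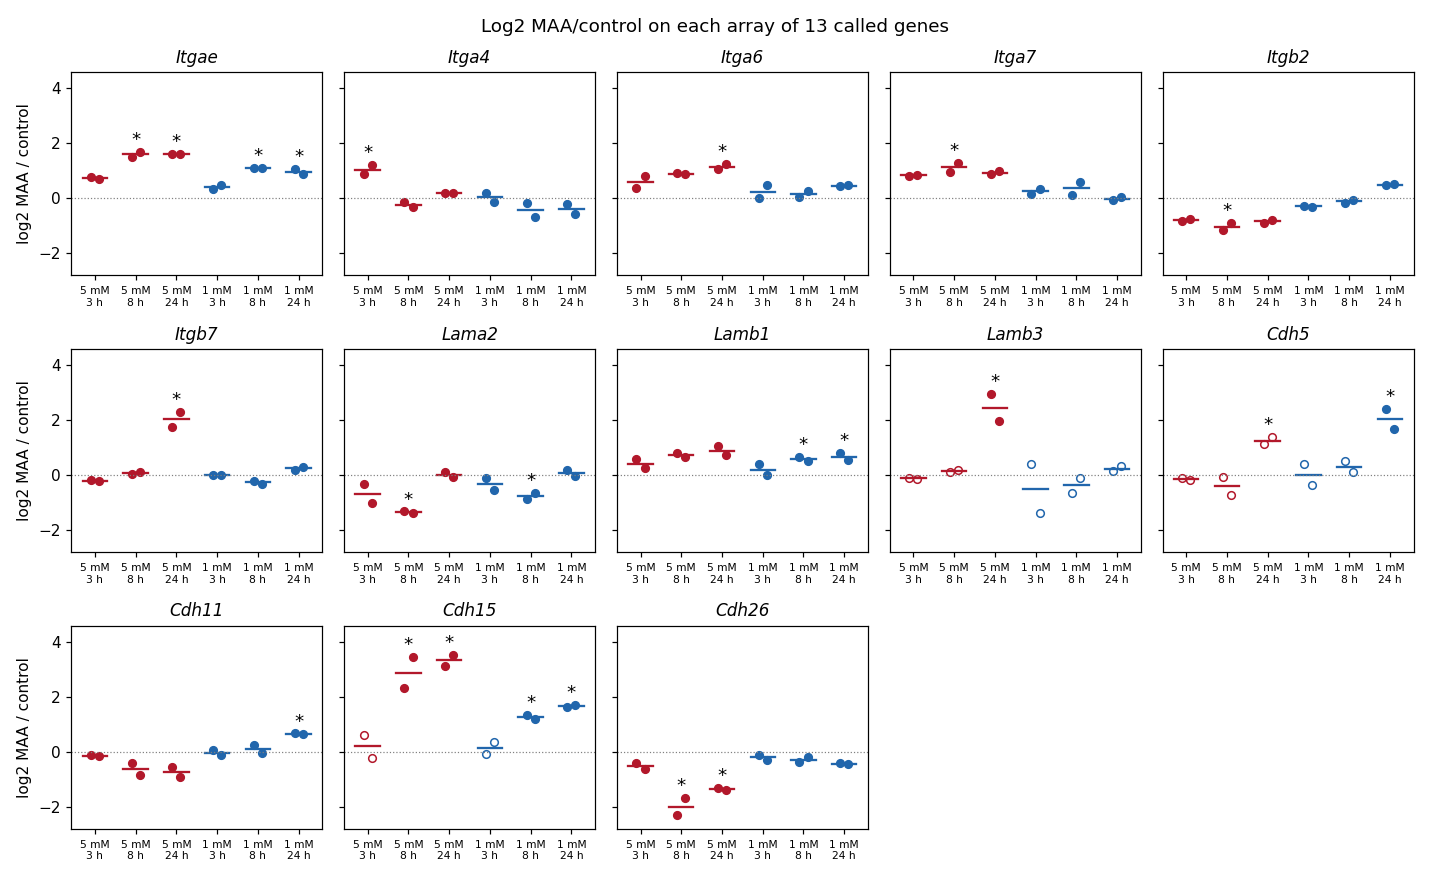
Log2 MAA/control on each of the 2 arrays (points) and their mean (bar) for 13 of the 14 genes called in at least 1 condition, at 5 mM (red) and 1 mM (blue); an asterisk marks a call and an open point a condition where neither channel was above background on the 2 arrays together. Itgae and Cdh15 were called higher at 8 and 24 h at both concentrations, whereas Itgb7 and Lamb3 were called at 5 mM and 24 h alone.

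Among the alpha subunits, Itgae rose at both concentrations. It encodes alpha E, the subunit that pairs with beta 7 to hold lymphocytes to epithelial E-cadherin. Its log2 ratios at 5 mM were 0.76 and 0.70 at 3 h, 1.52 and 1.68 at 8 h and 1.62 and 1.62 at 24 h, and at 1 mM 0.35 and 0.47, 1.12 and 1.11 and 1.07 and 0.87. All 12 arrays were above 0, and the arrays of 8 and 24 h lay above those of 3 h at either concentration without overlap. The mean was 1.60 ± 0.07 at 5 mM and 8 h (adjusted p = 1.31e-05) and 1.62 at 24 h (adjusted p = 1.39e-05), and 1.12 and 0.97 at 1 mM (adjusted p = 0.000988 and 0.000529), all 4 of them called. The ratio at 5 mM exceeded that at 3 h by 0.87 ± 0.10 at 8 h (adjusted p = 0.00763). With normexp background correction and loess, the call at 1 mM and 24 h was lost (0.40, adjusted p = 0.0662, against 0.000149 to 0.0662 over all alternatives). In bulk RNA such as this, a change of RNA per cell, up or down, and a change in the number of cells that hold it cannot be told apart.

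Itga7 encodes the alpha 7 subunit, a laminin receptor of muscle. Its arrays read 0.83 and 0.85 at 3 h, 0.96 and 1.29 at 8 h and 0.89 and 0.98 at 24 h with 5 mM, and 0.16 and 0.35, 0.13 and 0.59 and -0.07 and 0.03 with 1 mM. All 6 arrays at 5 mM were above all 6 at 1 mM. The mean at 5 mM and 8 h, 1.13 ± 0.12 (adjusted p = 0.000373), was called, and its other probe gave 1.26 there with the same call. The 3 h and 24 h means, 0.84 and 0.94, had adjusted p-values of 0.00208 and 0.001 but did not reach 2-fold. The difference between concentrations passed the test at 8 h (0.77 ± 0.17, adjusted p = 0.0334) and at 24 h (0.96, adjusted p = 0.0173). The 8 h call rests on a ratio close to the 2-fold limit and was lost with normexp and loess (0.99) and without replicate 2 (0.96).

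Itga6 encodes alpha 6, which with beta 1 or beta 4 forms the main laminin receptors of epithelial cells. At 5 mM it read 0.39 and 0.81 at 3 h, 0.92 and 0.87 at 8 h and 1.05 and 1.24 at 24 h, and at 1 mM 0.03 and 0.47, 0.05 and 0.26 and 0.43 and 0.50. At 5 mM the 24 h arrays were the highest of the gene, above the 3 h and 8 h arrays, and the mean there was called (1.15 ± 0.13, adjusted p = 0.000552). The 24 h against 3 h difference did not pass the test (adjusted p = 0.097).

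Itga4, the subunit of the fibronectin and VCAM-1 receptors of leukocytes, was the only member called at 3 h. It read 0.87 and 1.22 at 5 mM and 3 h but -0.14 and -0.32 at 8 h and 0.18 and 0.21 at 24 h, with 0.20 and -0.13, -0.18 and -0.68 and -0.21 and -0.56 at 1 mM. The 3 h arrays at 5 mM stood alone above the other 10. The 3 h mean was 1.05 ± 0.15 (adjusted p = 0.00215), with the control channel above background on 1 of the 2 arrays, and the difference at 8 h against 3 h was -1.27 ± 0.22 (adjusted p = 0.0214). The other 2 probes of the gene were below background on all arrays, and the call was lost with normexp and loess (0.26) and without replicate 2 (0.87).

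Of the remaining alpha subunits, Itga3, Itga5, Itga2b, Itga11, Itgal and Itgav were above background in both channels on all 12 arrays and were not called. Itga5, which with beta 1 forms the classical fibronectin receptor, gave means of 0.50, 0.05 and 0.44 at 5 mM and 0.40, 0.11 and 0.41 at 1 mM (SE 0.07). Its ratios at 8 h were the lowest of the 3 times at both concentrations, and the 8 h against 3 h difference at 5 mM was -0.45 ± 0.10 (adjusted p = 0.0464). Itga3, a laminin receptor subunit, ranged from 0.18 to 0.60 by its main probe, and its other 2 probes were likewise above 0 in all 6 conditions. Itga2b, the platelet subunit, ranged from -0.68 to -0.18. Itgav, which pairs with several beta subunits to bind vitronectin, stayed between -0.10 and 0.24. Itga11, a collagen receptor subunit, gave -0.97 ± 0.32 at 5 mM and 8 h (adjusted p = 0.0585), and its arrays of 5 mM and 3 h lay far apart, with 0.36 and -1.07.

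Among the beta subunits, Itgb7 was called higher at 5 mM and 24 h and Itgb2 lower at 5 mM and 8 h. Itgb7, the partner of alpha E and alpha 4 on lymphocytes, read -0.19 and -0.20 at 5 mM and 3 h, 0.05 and 0.10 at 8 h and 1.76 and 2.29 at 24 h, and 0.02 and 0.02, -0.20 and -0.32 and 0.20 and 0.29 at 1 mM. Both arrays of 5 mM and 24 h stood far above the other 10, which lay near 0. The mean of 2.03 ± 0.11 was called (adjusted p = 2.9e-05), and it exceeded the 8 h ratio by 1.95 ± 0.16 (adjusted p = 0.0014) and the 24 h ratio at 1 mM by 1.78 (adjusted p = 0.0016). This call was kept in every alternative, with log2 ratios between 1.07 (normexp and loess) and 2.29.

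The signals of the separate channels were compared across times on a log2 scale, after quantile normalisation of the mean signal across arrays. For Itgb7, the untreated cells gave 8.25 to 8.81 over the 4 control channels of 3 h, 8.43 to 8.60 at 8 h and 4.48 to 5.13 at 24 h. The cells treated with 5 mM MAA averaged 8.34, 8.58 and 6.83, and those treated with 1 mM 4.95 at 24 h. The signal was thus lower at 24 h than at 3 h with and without MAA, by less at 5 mM than in the controls. Differences between times within a channel were not tested, and the labels do not say whether the 4 control channels of a time hold RNA of the same cultures. In the channels of Itga6, the control signal averaged 10.13 at 3 h and 8.42 at 24 h, and that with 5 mM MAA 10.75 and 9.64, so it too was lower at 24 h with and without MAA, and by less with MAA.

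**Figure D3:**
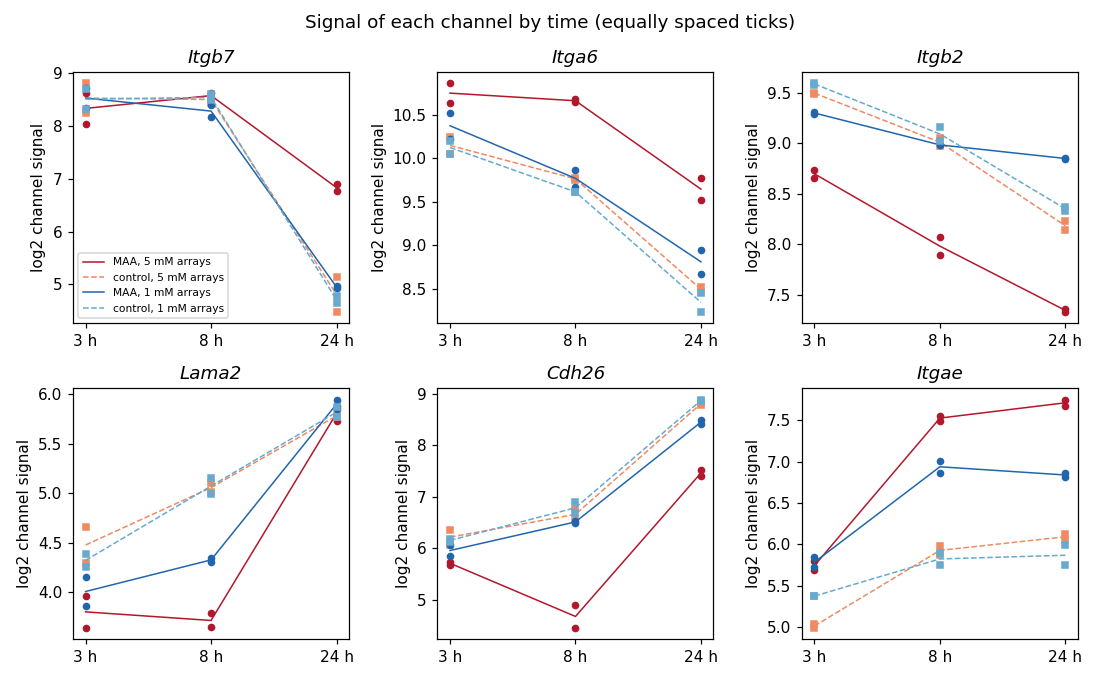
Log2 signal of the MAA (circles, solid lines) and control (squares, dashed lines) channel of each array at 3, 8 and 24 h, on the 5 mM (red tones) and 1 mM (blue tones) arrays, with lines through the means of 2 arrays; each panel has its own scale. Control signal was lower at 24 h than at 3 h for Itgb7, Itga6 and Itgb2 and higher for Lama2, Cdh26 and Itgae.

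Itgb2 encodes beta 2, the common subunit of the leukocyte integrins formed with Itgal, Itgam and Itgax. It read -0.83 and -0.77 at 5 mM and 3 h, -1.16 and -0.90 at 8 h and -0.89 and -0.78 at 24 h, but -0.27 and -0.31, -0.17 and -0.04 and 0.48 and 0.51 at 1 mM. All 6 arrays at 5 mM were below all 6 at 1 mM, and at 24 h the 2 concentrations lay on opposite sides of 0. The 8 h mean at 5 mM was called (-1.03 ± 0.08, adjusted p = 7.09e-05), while the 24 h mean at 1 mM of 0.50 (adjusted p = 0.00762) did not reach 1.5-fold. The concentrations differed by -1.34 ± 0.11 at 24 h (adjusted p = 0.00133). The 8 h call was lost with normexp and loess (-0.87) and without replicate 1 (-0.90), both just under 2-fold.

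Of the alpha partners of beta 2, Itgal was above background throughout with means between -0.17 and 0.27, and Itgam and Itgax were not above background on any array. Ptprc, the pan-leukocyte marker, was below background in both channels of all 12 arrays. Of the 8 leukocyte markers, 6 were measured, and Cd14 and Cd3e were above background in the control channel of all 12. Cd14 was called lower at 5 mM at 8 h and at 24 h, when it fell by 1.64, and Adgre1, below background in every control channel, was called higher at 24 h at both concentrations. The summed signal of the 6 markers, of which Cd14 had the highest, ranged from 439 to 1351 over the control channels and from 317 to 891 over the MAA channels, and was lower with MAA on each of the 12 arrays. The part of these markers in the integrin ratios was not tested.

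Itgb1, the partner of most alpha subunits, Itgb3 and Itgb5, which pair with alpha V, and Itgb4, the partner of alpha 6, were above background on all arrays and not called. The means of Itgb1 lay between -0.10 and 0.16 (SE 0.07), those of Itgb3 between -0.09 and 0.09, and those of Itgb5 between 0.04 and 0.27. Itgb4 moved with time at 5 mM, from -0.29 and -0.38 at 3 h through -0.06 and 0.04 to 0.44 and 0.36 at 24 h. Its 24 h arrays were above its 3 h arrays, the difference being 0.74 ± 0.12 (adjusted p = 0.00705), and the other probe of the gene gave -0.43 and 0.47 at these times.

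Among the laminins, Lamb3, the beta 3 chain of epithelial basement membranes, was called higher at 5 mM and 24 h. It was below background in the control channel of all 12 arrays and above it in the MAA channel only on the 2 arrays of 5 mM and 24 h, where it read 2.95 and 1.96. Its level with MAA was therefore at least 0.59 higher on the log2 scale, a bound set against the lowest signal among probes above background. The bound was not tested, and the adjusted p of 0.00237 in limma belongs to the measured ratio against 0. Of the 6 epithelial markers, Krt8 was called higher at 5 mM and 24 h too, Krt19 was called lower at 3 and 8 h, and Epcam was above background in 1 of 12 control channels. Their summed signal, of which Krt8 had the highest, was 903 and 778 in the control channels of 5 mM and 24 h and 1500.1 and 1436 in the MAA channels, and the part of these markers in the laminin ratios was not tested. The call was lost with normexp and loess (0.29) and without replicate 1 (1.96).

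Lama2, the alpha 2 chain of muscle and nerve laminins, whose probe is spotted 10 times on the array, went the other way. It read -0.33 and -1.02 at 5 mM and 3 h, -1.32 and -1.37 at 8 h and 0.12 and -0.07 at 24 h, and -0.10 and -0.52, -0.85 and -0.64 and 0.18 and -0.01 at 1 mM. The 4 arrays of 8 h and the 4 of 3 h were all below 0, and those of 24 h lay around it. At 5 mM and 3 h the MAA channel was above background on 0 of 2 arrays. The mean at 8 h was -1.34 ± 0.17 at 5 mM (adjusted p = 0.000692), with the MAA channel above background on 1 of 2 arrays, and -0.75 at 1 mM (adjusted p = 0.0459). At 5 mM the 24 h ratio was higher than that at 8 h by 1.37 ± 0.24 (adjusted p = 0.0141). Another probe of Lama2 was above background in the MAA channel on 0 arrays of 8 h, so that its level was at least 0.57 lower on the log2 scale at 1 mM, and no fold is given for it at 5 mM. Both calls of the main probe were lost with normexp and loess (-0.35 and -0.24), and the call at 1 mM also without either of its arrays (-0.64 without replicate 1 and -0.85 without replicate 2).

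In the control channels of Lama2 the signal lay from 4.26 to 4.66 at 3 h, from 4.99 to 5.16 at 8 h and from 5.77 to 5.87 at 24 h. With 5 mM MAA it averaged 3.80, 3.72 and 5.81, below the control range at 3 and 8 h and within it at 24 h.

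Lamb1 and Lamc1, widespread beta and gamma chains, had positive ratios on all 6 arrays of 5 mM, with means short of the 2-fold required there. Lamb1 read 0.58 and 0.25 at 3 h, 0.82 and 0.66 at 8 h and 1.05 and 0.73 at 24 h with 5 mM, and 0.41 and -0.01, 0.67 and 0.51 and 0.81 and 0.54 with 1 mM. At 8 and 24 h all 8 arrays were above 0, and the means at 1 mM, 0.59 and 0.68 (SE 0.14), passed the 1.5-fold rule with adjusted p = 0.0538 and 0.0221, the first of which misses 0.05. The 8 h call at 1 mM was also lost with the deposited ratios (0.58) and, by its p, without either array of 5 mM and 8 h (0.59), and both calls without either of their own arrays, with log2 ratios from 0.51 to 0.81. Lamc1 read 0.41 and 0.42 at 3 h, 0.77 and 0.80 at 8 h and 0.60 and 0.75 at 24 h at 5 mM, and its 8 h mean of 0.79 ± 0.07 (adjusted p = 0.00014) was higher than at 1 mM by 0.56 ± 0.10 (adjusted p = 0.0136). Lamb2, the beta 2 chain, stayed between -0.20 and 0.10.

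The largest mean ratio of the set was that of Cdh15, M-cadherin, which is known from skeletal muscle precursors. It read 2.33 and 3.45 at 5 mM and 8 h and 3.12 and 3.54 at 24 h, and 1.36 and 1.20 and 1.65 and 1.70 at 1 mM, after 0.61 and -0.21 and -0.08 and 0.35 at 3 h. At 3 h, each channel was above background on 1 of 2 arrays at 5 mM and on 0 at 1 mM, so differences from 3 h are not sizes of change. At 8 and 24 h, the arrays of 5 mM lay above those of 1 mM. The means were 2.89 ± 0.28 (adjusted p = 0.000224) and 3.33 (adjusted p = 0.000141) at 5 mM, with the control channel above background on 1 of 2 arrays at 8 h and on both at 24 h. At 1 mM they were 1.28 and 1.68 (adjusted p = 0.0448 and 0.0108), with the control channel above background on 1 of 2 arrays at each time. Both calls at 5 mM were kept in every alternative, with log2 ratios between 1.30 (8 h, normexp and loess) and 3.54, and both at 1 mM were lost with normexp and loess (0.23 and 0.22) and without either of their own arrays (1.20 to 1.70), and that at 8 h also with the slide as a block (1.27).

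Cdh26, a cadherin of epithelia that is not of the classical type, fell. It read -0.39 and -0.62 at 5 mM and 3 h, -2.31 and -1.66 at 8 h and -1.30 and -1.39 at 24 h, and -0.12 and -0.28, -0.36 and -0.19 and -0.40 and -0.44 at 1 mM. All 12 arrays were below 0, and the 4 arrays of 5 mM at 8 and 24 h were far below the other 8. The means of -1.98 ± 0.14 (adjusted p = 6.04e-05) and -1.34 (adjusted p = 0.000367) were called, and differed from those at 1 mM by -1.71 ± 0.20 and -0.92 (adjusted p = 0.00369 and 0.0329). With normexp and loess the 8 h ratio was -0.94 and no longer past 2-fold. Control signal of Cdh26 was 6.19 at 3 h, 6.73 at 8 h and 8.84 at 24 h, and with 5 mM MAA 5.71, 4.68 and 7.47. It was lower with 5 mM MAA than in the controls at each time, and higher at 24 h than at 3 h in both.

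Cdh11, a type II cadherin of mesenchymal cells, had ratios of opposite sign at the 2 concentrations at 24 h. It read -0.12 and -0.13 at 5 mM and 3 h, -0.38 and -0.82 at 8 h and -0.53 and -0.89 at 24 h, and 0.07 and -0.10, 0.25 and -0.03 and 0.68 and 0.67 at 1 mM. At 24 h both arrays of 5 mM were below 0 and both of 1 mM above it. The mean at 1 mM and 24 h was called (0.67 ± 0.13, adjusted p = 0.0173), that at 5 mM was -0.71 (adjusted p = 0.00466) and short of 2-fold, and they differed by -1.39 ± 0.18 (adjusted p = 0.00571). Of its other probes, 1 was called at 1 mM as well (0.70) and 1 was not, with 0.12 at 1 mM against -0.41 at 5 mM. This last probe was below 0 at both concentrations at 3 h (-0.50 at 5 mM and -0.25 at 1 mM) and at 8 h (-0.75 and -0.31). The 1 mM call was lost with the slide as a block (0.58) and without either of its arrays (0.67 and 0.68).

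Cdh2, N-cadherin, and Cdh20, a type II cadherin, were above background throughout and were not called, but showed the reverse order of concentrations at 24 h. Cdh2 read 0.50 and 0.25 at 5 mM and -0.51 and -0.55 at 1 mM, a difference of 0.91 ± 0.15 (adjusted p = 0.0122), and Cdh20 read -0.03 and 0.32 and -0.58 and -0.41, a difference of 0.65 (adjusted p = 0.0385). The arrays of the 2 concentrations did not overlap for either gene. Cdh5, the cadherin of endothelium, was below background in all 12 control channels and above it with MAA only at 1 mM and 24 h. Its level there was at least 2.77-fold higher, a bound that was not tested. The adjusted p of 0.00332 in limma belongs to the measured ratio of that condition, which was called. Cdh5 was also called at 5 mM and 24 h, where neither channel was above background, so that its ratios there are not sizes of change. Both calls were lost with normexp and loess (0.07 at 5 mM and 0.18 at 1 mM), and that at 5 mM with the slide as a block (1.22) and without either of its arrays (1.39 and 1.13). Its other probe was below background on all arrays. Of the 6 endothelial markers, Tek was above background in 8 of the 12 control channels, Cldn5 in 5, Tie1 and Vwf in 1, and Pecam1 and Kdr in 0. Vwf was called higher at 5 mM and 24 h, and the summed signal of the 6, of which Tek had the highest, was 79.6 and 67.9 in the control channels and 97.3 and 76.8 in the MAA channels there. At 1 mM and 24 h it was 71.7 and 51.2 in the control channels and 86.9 and 64.6 in the MAA channels. Tek itself gave -1.01 at 5 mM and 24 h and was not called. No size is given for Tek at 5 mM and 8 h or for Cldn5 at 5 mM and 24 h, where neither channel was above background on the 2 arrays together. The part of the endothelial markers in the Cdh5 ratio was not tested. Cdh1, E-cadherin, was above background in 5 of 12 control and 7 of 12 MAA channels, was not called, and gave 0.34 and 0.46 at 5 mM and 24 h. At 3 h neither channel was above background on any array, so its differences from 3 h are not sizes of change.

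**Figure D4:**
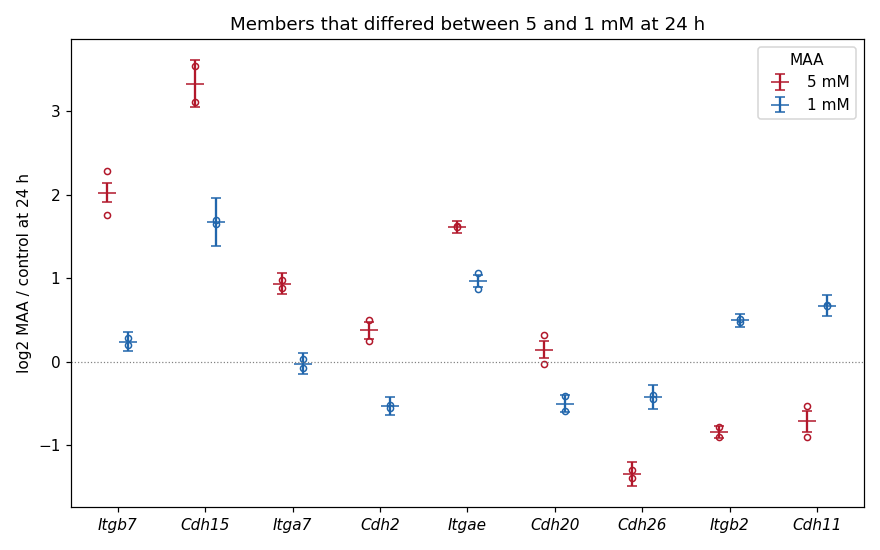
Log2 MAA/control at 24 h for 9 genes whose main probe differed between 5 mM (red) and 1 mM (blue), showing both arrays (open circles) and the mean with its SE from limma (bars). Itgb2 and Cdh11 were below 0 at 5 mM and above 0 at 1 mM, and Cdh2 was above 0 at 5 mM and below 0 at 1 mM.

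Counted over the 72 probes, contrasts between conditions at an adjusted p under 0.05 gave the following. At 5 mM, 3 probes had higher and 3 lower ratios at 8 h than at 3 h, while 5.1% of all probes passed in either direction, 7 were higher and 0 lower at 24 h than at 8 h (8.91% of all probes), and 9 were higher and 2 lower at 24 h than at 3 h (15.8%). Between 5 and 1 mM, 0 differed at 3 h (3.4% of all probes), where 12 had an unadjusted p under 0.05 in limma, 6 were higher and 3 lower at 5 mM at 8 h (10.1%), and 8 were higher and 5 lower at 24 h (8.41%). As shares of the members these are 8.33%, 9.72%, 15.3%, 0%, 12.5% and 18.1%. On the whole array, in the same order, 1151, 1893, 3453, 621, 1992 and 1663 probes were higher. Those lower were 950, 1777, 3057, 778, 2170 and 1799. The share for 24 h against 3 h was close to that of the whole array, and the share that differed between concentrations at 24 h was the furthest above it. With a block for the replicate number, more probes passed in the set and on the array alike. Between the concentrations, 5 members (6.94%, against 9.72% of all probes) differed at 3 h, 14 (19.4%, against 19.8%) at 8 h and 15 (20.8%, against 17.5%) at 24 h. At 5 mM, 11 (15.3%, against 12.8%) passed for 8 h against 3 h and 22 (30.6%, against 25.7%) for 24 h against 3 h. For 24 h against 8 h, 10 passed (13.9%), a share under the 18% of all probes. The share between the concentrations at 24 h thus lay closer to that of the array with this block. At 3 h, 3 differed between the concentrations with normexp and loess (4.17%, against 5.99% of all probes) and without dim probes (7.32% of the 41 left, against 9.5%), and 2 (2.78%) with the deposited ratios (against 6.89%) and with the slide as a block (against 4.26%), so the 0 there depends on these choices, while each share was under that of the array. For 24 h against 8 h, 11 passed with normexp and loess (15.3%, against 11.8% of all probes), 13 with the deposited ratios (18.1%, against 13.5%) and 12 without dim probes (29.3%, against 19.2%), but 4 with each array centred on its median (5.56%, against 3.24%). Centring also left 2 between the concentrations at 8 h (2.78%, against 3.62%). The count between concentrations at 24 h was 6 with each array centred on its median (8.33%, against 3.7% of all probes). Leaving out 1 array lowered this count, and in at least some refits those for 24 h against 3 h and against 8 h. The ranges are given in the last section, without shares of all probes, so they are not set against the array. Ratios at the 2 concentrations may share control cultures of a time and are given side by side.

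To show the DNA upstream of members that responded, the RefSeq promoter windows of GRCm38.p6, 300 bases around the start of a gene, were searched on both strands for GGGCGG, the GC box bound by SP1, for CACCTG, the E-box bound by the SNAI and ZEB repressors of Cdh1, and for TGANTCA, the AP-1 element. Windows were found for 29 of the 50 genes, 34 windows in all, and for 7 of the 14 called genes. GGGCGG occurred in 16 of the 34 windows (47.1%) and in 35.7% of all 32851 windows, CACCTG in 9 (26.5%) and 20.2%, and TGANTCA in 3 (8.82%) and 7.81%. Printed are Cdh15 and Lamb1, called higher with MAA than in controls, Lama2, called lower, and Itgb7, called higher at the latest time alone. The signal of Itgb7 itself was lower at that time than earlier, with and without MAA. Matches are in capitals, all of them GGGCGG on either strand.
Cdh15 (chr8:122848124-122848423, plus strand): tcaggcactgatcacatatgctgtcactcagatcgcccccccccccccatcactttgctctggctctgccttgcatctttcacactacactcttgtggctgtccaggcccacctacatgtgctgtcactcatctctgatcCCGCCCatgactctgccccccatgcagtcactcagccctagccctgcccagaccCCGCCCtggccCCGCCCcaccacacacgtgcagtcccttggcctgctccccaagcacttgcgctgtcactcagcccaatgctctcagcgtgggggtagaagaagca
Lamb1 (chr12:31265043-31265342, plus strand): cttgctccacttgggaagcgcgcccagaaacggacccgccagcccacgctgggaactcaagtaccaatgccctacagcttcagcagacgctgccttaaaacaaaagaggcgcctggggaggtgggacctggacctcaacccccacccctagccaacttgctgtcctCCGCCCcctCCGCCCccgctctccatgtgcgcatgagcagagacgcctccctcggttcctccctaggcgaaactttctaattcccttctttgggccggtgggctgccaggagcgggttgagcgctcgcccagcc
Lama2 (chr10:27616893-27617192, minus strand): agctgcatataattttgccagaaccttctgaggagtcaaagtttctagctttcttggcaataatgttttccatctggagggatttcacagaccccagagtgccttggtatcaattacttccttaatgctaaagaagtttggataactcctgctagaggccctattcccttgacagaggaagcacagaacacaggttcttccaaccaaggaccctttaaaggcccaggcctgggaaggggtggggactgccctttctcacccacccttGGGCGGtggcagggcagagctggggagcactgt
Itgb7 (chr15:102231886-102232185, minus strand): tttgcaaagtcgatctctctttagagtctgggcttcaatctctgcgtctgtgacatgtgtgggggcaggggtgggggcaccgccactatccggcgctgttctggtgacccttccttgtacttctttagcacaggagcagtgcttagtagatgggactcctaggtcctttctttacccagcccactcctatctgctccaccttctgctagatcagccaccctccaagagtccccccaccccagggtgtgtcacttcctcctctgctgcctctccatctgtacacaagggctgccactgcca
There were 3 matches in Cdh15, 2 in Lamb1, 1 in Lama2 and 0 in Itgb7. Of all 8 windows of the 7 called genes, 4 held GGGCGG, 1 held CACCTG and 0 held TGANTCA, and among the genes not printed Itga4 held 1 GGGCGG and Cdh26 and Lamb3 held 0. A match is a description of these letters and not a bound site.

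The proteins that work with these receptors and ligands were taken from lists of symbols. Of 21 cytoplasmic partners of integrins, 17 were measured, and 0, 2 and 2 were called higher at 5 mM and 3, 8 and 24 h, and 1 at each time at 1 mM, with 0 lower in any condition, against 2.02%, 3.06% and 3.85% of all probes higher at 5 mM and 1.32%, 1.72% and 3.26% at 1 mM. These were Lims2, a LIM protein of the integrin-linked kinase complex, with 2.23 ± 0.11 at 5 mM and 8 h and 1.92 at 24 h (adjusted p = 1.42e-05 and 2.85e-05), which was also called at all 3 times at 1 mM, and Vcl, vinculin, with 1.07 ± 0.06 and 1.14 at 5 mM (adjusted p = 2.2e-05 and 2.11e-05). The median of the 17 was 0.21, 0.34 and 0.29 at 5 mM, against -0.10, -0.04 and 0.03 for all probes. Of the 17, 15 were above background in the control channel of all 12 arrays. Probes above background are thus the closer set, with medians of -0.01, -0.01 and -0.06. Among these, 2.81%, 4.18% and 4.99% were called higher at 5 mM. None of the 8 catenins and related proteins was called in any condition, where 0.627% to 3.85% of all probes were called in a given direction, so that 0 of so few is near the background. Ctnnb1, beta-catenin, gave 0.55 at 5 mM and 24 h, and Jup, plakoglobin, gave 0.82.

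Of 10 partners and other receptors of laminin, 9 were measured, and 2 were called higher at 24 h at both concentrations and 1 at 1 mM and 8 h, with 0 lower. At 24 h, 3.85% of all probes were called higher at 5 mM and 3.26% at 1 mM, and at 1 mM and 8 h 1.72%. The median of the 9 was 0.33 at 5 mM and 24 h and 0.12 at 1 mM, against 0.03 and -0.07 for all probes and -0.06 and -0.03 for probes above background. Agrn, agrin, gave 1.01 ± 0.07 at 5 mM and 0.62 at 1 mM, and Bcam, a receptor of the laminin alpha 5 chain, gave 1.21 ± 0.10 and 0.59 at 24 h. Nid1, nidogen, which links laminin to collagen IV, had 0.79 at 5 mM and 24 h and was not called.

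All 11 other integrin ligands were measured, 2 being called higher at 5 mM at 3 h, 2 at 8 h and 1 at 24 h, when 1 was lower, and at 1 mM 0, 1 and 2 were higher. Of all probes, 2.02%, 3.06% and 3.85% were called higher at 5 mM and 1.77% lower at 24 h, and 1.32%, 1.72% and 3.26% higher at 1 mM. The median of the 11 was -0.07, 0.26 and 0.17 at 5 mM, against -0.10, -0.04 and 0.03 for all probes and -0.01, -0.01 and -0.06 for probes above background. Spp1, osteopontin, gave 2.24 ± 0.18 at 5 mM and 24 h and 0.75 at 1 mM. Tnc, tenascin C, by the brighter of its 2 probes, gave -1.41 ± 0.11 at 5 mM and 24 h but 1.14 at 1 mM, and both of these ratios were called. The main probe of Cdh11 had a like contrast of sign at 24 h, but its 5 mM ratio was not called. Thbs1, thrombospondin, and Ccn1, both matricellular ligands, gave 1.16 and 1.83 at 5 mM and 3 h, 1.38 and 2.06 at 8 h, where both were called as at 3 h, and 0.37 and 0.08 at 24 h. None of the 6 repressors of Cdh1 was called in any condition, which for so few genes is likewise near the background of 0.627% to 3.85%. Their ratios at 5 mM reached from -0.97 for Zeb2 at 8 h to 0.94 for Snai1 at 3 h.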

How the data were processed

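Each of the 12 arrays compared TM3 cells treated with MAA with untreated cells. The authors scanned the arrays with Agilent Feature Extraction 9.5.3.1 (version per the file headers), and the deposited scanner files hold intensity values on a linear scale, background-subtracted and dye-normalised, for each channel. The deposited value table holds log10 ratios of MAA over control, made by the authors from the same arrays, and served as an alternative; its scale, centring and direction were found by setting it against the scanner values. The median of each deposited column was 0. Log2 ratios of the processed intensities were computed here, the log2 scale being the one used throughout, with replicate 2 turned to MAA over control. Control spots and spots with outlier flags (124 to 208 an array) were left out, and spots of a probe were averaged.

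Of 41174 probes, 22072 were named through their accession and 10 by a name that is a symbol in the RefSeq table; the others are unnamed here. As the gene name column repeats these accessions, the naming rule for members was applied to the symbols found in this way. The members and lists were chosen with earlier results of these data known. One model with 6 coefficients, 1 for each condition, was fitted to all probes with limma 3.58.1 in R 4.3.3, with lmFit and eBayes, and contrasts were tested in the same fit. The genes described in full are those whose main probe was called at 5 mM and above background there; 1 gene that meets this rule is not reported here; genes called at 1 mM alone, genes above background everywhere and not called, and partners are given in short, and Lamb1, Cdh11, Itga11, Itgb4, Cdh1, Cdh2, Cdh20 and Lamc1 are given with array values after these were seen. Figures were drawn with matplotlib 3.10.9. Bounds compare channel means after Aquantile normalisation with the lowest signal among probes above background.

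Alternatives were normexp with an offset of 50 and loess, the deposited ratios, centring on the median, leaving out dim probes, keeping outlier spots, a block for the replicate number or for the slide, calls by adjusted p, and leaving out each array; counting probes above background alone was added after seeing the data.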

Additional observations from a re-analysis of the deposited data

Results flagged for a closer look

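The values here are tested differences in log2 MAA/control between times at 5 mM or between concentrations at one time, from limma at an adjusted p under 0.05, for the main probes of member genes. No sample was examined for standing apart, as each condition has 2 arrays. Lamb3 and Cdh5 were below background in the control channel at all times, and Cdh5 also in the MAA channel at 5 mM. At 5 mM and 3 h, Cdh1 was below background in both channels, and Cdh15 was above it in each channel on 1 of 2 arrays. The differences given for these 4 genes are therefore not sizes of change. The control channel of Cdh15 was above background on 1 of 2 arrays at 8 h at both concentrations and at 1 mM and 24 h, and the MAA channel of Lama2 on 1 of 2 at 5 mM and 8 h.

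At 5 mM, the ratio at 8 h exceeded that at 3 h by 2.69 for Cdh15 and 0.87 for Itgae. In the opposite direction it was -0.45 for Itga5, -1.27 for Itga4 and -1.48 for Cdh26. From 8 to 24 h at 5 mM, the difference was 2.29 for Lamb3, 1.95 for Itgb7, 1.65 for Cdh5, 1.37 for Lama2, 0.79 for Cdh2 and 0.66 for Cdh20. Set against 3 h, the 24 h ratio at 5 mM differed by 3.13 for Cdh15, 2.57 for Lamb3, 2.22 for Itgb7, 1.39 for Cdh5, 0.89 for Itgae, 0.74 for Itgb4 and 0.70 for Cdh1. In the opposite direction it was -0.84 for Cdh26 and -0.85 for Itga4. Between 5 and 1 mM at 8 h, the difference was 1.61 for Cdh15, 0.77 for Itga7, 0.74 for Itga6, 0.56 for Lamc1 and 0.49 for Itgae. In the opposite direction it was -0.92 for Itgb2 and -1.71 for Cdh26. Between 5 and 1 mM at 24 h, it was 1.78 for Itgb7, 1.66 for Cdh15, 0.96 for Itga7, 0.91 for Cdh2, 0.65 for Itgae and 0.65 for Cdh20. In the opposite direction it was -0.92 for Cdh26, -1.34 for Itgb2 and -1.39 for Cdh11. 

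No main probe differed between 5 and 1 mM at 3 h in limma without a block, whereas 5 member probes did with the replicate number as a block, 3 with normexp and loess and without dim probes, and 2 with the deposited ratios and with the slide as a block. Differences between channels of untreated cells over time were not tested.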

How the results depend on the processing

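Among the 23 calls of single member genes described, none changed direction in any alternative. All 23 were kept when arrays were centred on their medians, outlier spots were kept, dim probes were left out or the replicate number was a block. Of these, 22 were kept with the deposited ratios and with adjusted p-values, 20 with the slide as a block and 11 with normexp and loess. Why calls were lost was not tested. For the partner, ligand and marker genes taken from lists, calls under the alternatives are not given, also where a ratio is close to the 2-fold limit, as for Agrn and Vcl. Signal over background limits these results: 31 of 72 probes were above it on both arrays of no condition. Counted over probes above background alone, an alternative chosen after seeing the data, 1, 4 and 6 of 35, 35 and 40 members were called higher at 5 mM at 3, 8 and 24 h (2.81%, 4.18% and 4.99% of all such probes) and 0, 3 and 1 lower (2.45%, 3.62% and 2.32%), and 0, 4 and 7 of 35, 38 and 40 higher at 1 mM (1.79%, 2.31% and 4.28%) and 0, 2 and 0 lower (0.814%, 0.787% and 1.71%).

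Counts of member probes moved by over 1.5 times as follows. With normexp and loess, 0 were called at 5 mM and 3 h, 3 (3 higher, 0 lower) at 5 mM and 8 h, 3 (3 higher, 0 lower) at 1 mM and 8 h and 3 at 1 mM and 24 h, and the contrasts gave 11 for 24 h against 8 h and 3 for 5 against 1 mM at 3 h. The deposited ratios gave 13 and 2 for these contrasts, and leaving out dim probes 12 and 3. Centring on the median gave 4 for 24 h against 8 h, 2 (0 higher, 2 lower) for 5 against 1 mM at 8 h and 6 (2 higher, 4 lower) at 24 h; it moved the median of all probes by 0.11 at 5 mM and 3 h. With the slide as a block, 2 differed between 5 and 1 mM at 3 h. With a 2-fold limit added to the adjusted p, 4 passed for 24 h against 8 h (5.56%, against 1.93% of all probes) and 5 for 24 h against 3 h (6.94%, against 4.38%). Between 5 and 1 mM, 2 passed at 8 h (2.78%, against 1.88%) and 5 at 24 h (6.94%, against 2.36%). The cause was not tested. For the calls with normexp and loess, and for the refits without 1 array below, the share of all probes is not given.

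The replicate number goes with the dye orientation and in part with the slide. Slide 1 holds arrays of replicate 1 alone, slide 3 those of replicate 2 alone, and slide 2 holds both. With the replicate block, 11 passed for 8 h against 3 h, 22 for 24 h against 3 h, and 5 and 14 for 5 against 1 mM at 3 and 8 h; deviations of same-numbered arrays correlated between conditions with r from 0.04 to 0.77.

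Leaving out each array in turn, where a lone array is assumed to vary like the other pairs, gave 0 to 2 at 5 mM and 3 h, 6 to 8 at 5 mM and 8 h, 7 to 8 at 5 mM and 24 h, 0 to 1 at 1 mM and 3 h, 3 to 6 at 1 mM and 8 h and 4 to 7 at 1 mM and 24 h called, and 1 to 5 for 5 mM 8 h against 3 h, 1 to 6 for 5 mM 24 h against 8 h, 5 to 11 for 5 mM 24 h against 3 h, 0 to 0 for 5 mM against 1 mM at 3 h, 2 to 8 for 5 mM against 1 mM at 8 h and 3 to 12 for 5 mM against 1 mM at 24 h.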
